A study of Mus musculus with 6 samples.

Results

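Superoxide dismutases and peroxidases are the enzymes that remove superoxide and hydrogen peroxide, and 10 of their genes, out of 27502 genes with a value, are described here. They were chosen by symbol: Sod1, Sod2, Sod3, Cat, Gpx1, Gpx3, Gpx4, Gpx7, Gpx8 and Prdx6. RNA had been sequenced from vascular smooth muscle cells isolated from mouse aorta and kept in culture. In 3 samples short interfering RNA against Ezh2 was used (siEzh2), and 3 samples served as control. The study's design gives 48 hours for both groups; the sources used here name neither the siRNA sequence, nor what control cells received, nor the age and strain of the mice. Nothing in the labels ties a sample to its own culture or animal, so p-values measure the spread between these samples only, which may be technical.

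Superoxide is formed by the respiratory chain and by NADPH oxidases, and superoxide dismutases turn it into hydrogen peroxide. Catalase, glutathione peroxidases and peroxiredoxins then reduce hydrogen peroxide or lipid peroxides. These enzymes sit in different places: Sod3 and Gpx3 are secreted, Sod2 works in the mitochondrial matrix, catalase in peroxisomes, Gpx7 and Gpx8 in the endoplasmic reticulum, and Sod1, Gpx1, Gpx4 and Prdx6 mainly in the cytosol. Sod1, Gpx1 and Gpx4 also have mitochondrial pools, which values per gene cannot separate. In the artery wall Sod3, which binds heparan sulfate of the matrix, is known for protecting nitric oxide from superoxide.

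Ezh2, the methyltransferase of Polycomb repressive complex 2 that the siRNA targeted, had 1.20, 1.09 and 1.05 FPKM (fragments per kilobase of exon, scaled to library size) in siEzh2 samples, against 3.41, 3.59 and 3.88 FPKM in control samples. Samples held 16080005 to 17553743 reads (siEzh2) and 18248440 to 18753124 reads (control), as recovered from steps in the values. Of the smooth muscle markers, Acta2 averaged 537 ± 17.8 and 699 ± 14.8 FPKM in siEzh2 and control samples, while Myh11 (1.12 ± 0.181 and 1.83 ± 0.149) and Cnn1 (1.04 ± 0.0829 and 1.14 ± 0.203, SD, n = 3 each) were low. Of 6 tested smooth muscle markers 5 were lower in siEzh2 samples. The summed level of the list, most of it Acta2, was 543 to 581 FPKM there, against 718 to 748 FPKM in control samples. Tagln (means of 0.228 and 0.253 FPKM) and Des (0.431 and 0.752 FPKM) were below the filter and not tested. Genes on the opposite strand cover 67.9% of the exon bases of Tagln. Among adventitial fibroblast markers 1 was higher and 3 lower of 5 tested (sums of 64.7 to 68.0 and 72.8 to 76.7 FPKM). Pdgfra, the largest part of these sums, was 1.31 times higher, whereas Dpt, Lum and Col14a1 were 2.42, 2.51 and 1.92 times lower. Among adipocyte markers 0 were higher and 3 lower of 4 (21.9 to 23.2 and 31.0 to 31.5 FPKM). Macrophage and leukocyte markers had 2 higher and 2 lower of 4 (14.1 to 15.1 and 17.2 to 20.5 FPKM), with Ptprc and Adgre1, which define these cells, averaging under 0.1 FPKM in both groups. Csf1r and Lyz2 were 3.24 and 2.35 times lower, and Cd68 and Cd14 were 1.20 and 1.29 times higher. The endothelial list summed to 3.79 to 4.04 FPKM in siEzh2 and 2.37 to 2.58 FPKM in control samples, with 1 higher of 1 tested (Kdr). Of the untested ones, Tek, Vwf and Erg had higher means in siEzh2 samples. Pecam1 (0.0789 and 0.170 FPKM) and Cdh5 (0.196 and 0.223 FPKM) had lower means there. Transcripts of the mitochondrial genome, a sign of RNA quality, had 8 of 16 lower and 0 higher. The part of these shifts in the results below was not tested, and in bulk RNA fewer cells of a type and less RNA per cell cannot be told apart.

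The glutathione peroxidases among the members fall into 2 kinds by their catalytic codon. Gpx1, Gpx3 and Gpx4 carry selenocysteine, encoded by TGA within the coding sequence, whereas Gpx7 and Gpx8 have a cysteine codon there. The windows of 27 bases around this codon are shown because they tell the selenium-dependent members from the others. The last of them is an example of sequence that Gpx4 shares with a pseudogene. They are transcript sequences of GENCODE M21 (GRCm38), 5′ to 3′, with the codon in capitals. For Gpx7 and Gpx8 the codon shown is the one aligned with that of Gpx1, and for the processed pseudogene Gpx4-ps2 the bases aligned with Gpx4.
Gpx1: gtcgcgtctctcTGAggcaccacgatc
Gpx3: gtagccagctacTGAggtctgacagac
Gpx4: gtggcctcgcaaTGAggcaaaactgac
Gpx7: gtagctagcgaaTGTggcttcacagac
Gpx8: gtggctagtgacTGCcgcttcacagac
Gpx4-ps2: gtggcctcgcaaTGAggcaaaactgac
The codons lie on chromosome 9 from 108339451 to 108339453 (Gpx1), chromosome 11 from 54907256 to 54907258 (Gpx3), chromosome 10 from 80054737 to 80054739 (Gpx4), chromosome 4 from 108403430 to 108403432 (Gpx7, minus strand) and chromosome 13 from 113045661 to 113045663 (Gpx8, minus strand). The aligned bases of the pseudogene lie on chromosome 10 from 45875468 to 45875470, and all 27 bases of its window equal those of Gpx4.

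After Ezh2 knockdown most of these genes were lower. All 10 were tested, with limma on log2(FPKM + 1), among the 11869 genes that averaged 1 FPKM or more in either group. At an adjusted p under 0.05, 7 were lower and 2 higher, and Prdx6 did not pass. Over all tested genes 46.9% passed, 22.7% lower and 24.1% higher. In all 10 genes the siEzh2 and control samples did not overlap, 8 with lower and 2 with higher siEzh2 values. Groups did not overlap for 58.1% of all tested genes, with lower values for 28.1% and higher values for 30%. The median log2 fold change was −0.19 over the members and 0.01 over all tested genes. The SD over replicates was at most 6.42% of the mean for any member.

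**Figure D1:**
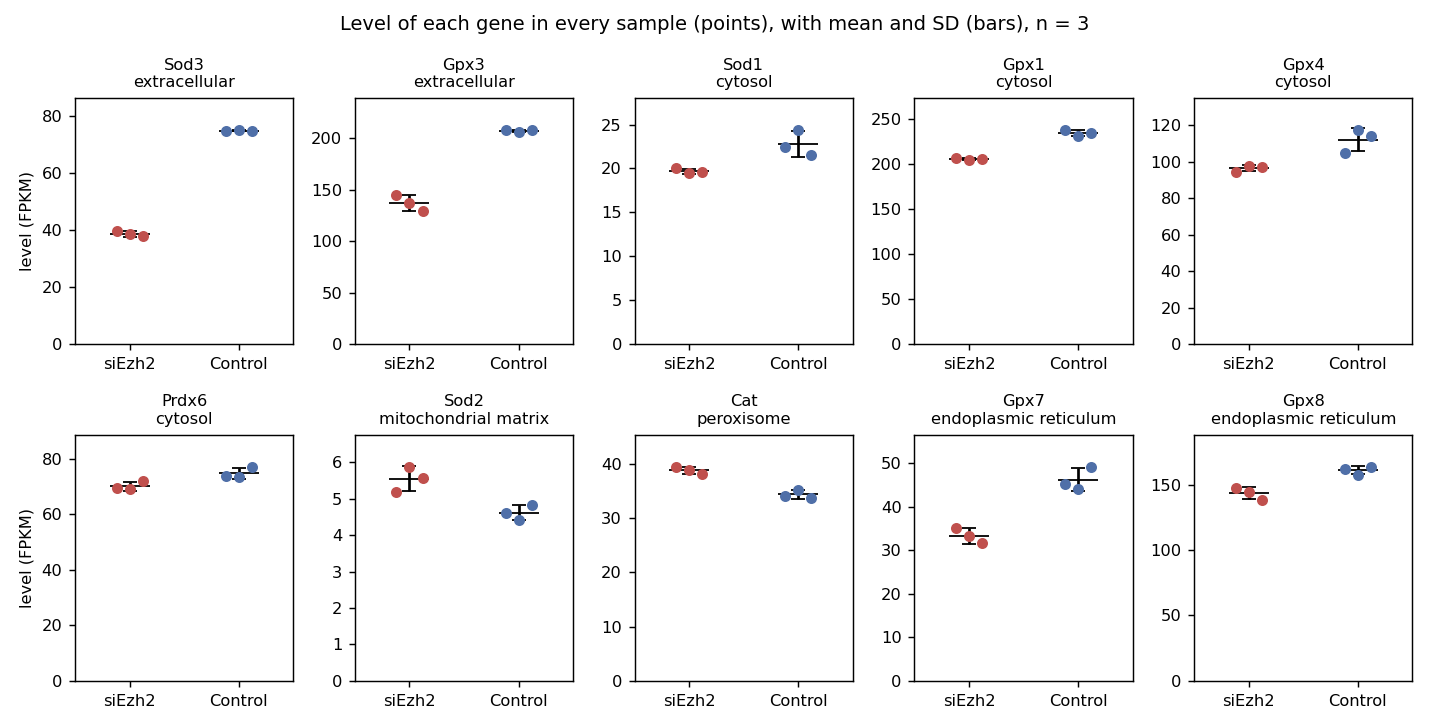
Level of each gene in FPKM (vertical axes, each from 0) in the 3 siEzh2 samples (left of each panel) and the 3 control samples (right), with mean and SD as bars. The groups do not overlap in any panel; Sod3 sits at 37.8 to 39.8 FPKM in siEzh2 samples, against 74.5 to 75.04 FPKM in control samples, while Sod2 and Cat are the panels where the siEzh2 samples lie higher.

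The secreted enzymes fell most among the members. Sod3 (ENSMUSG00000072941, chromosome 5 from 52363791 to 52371418, plus strand), the extracellular copper-zinc superoxide dismutase, had 39.8, 38.6 and 37.8 FPKM in siEzh2 samples, against 74.5, 75.04 and 74.9 FPKM in control samples. Both groups were tight and far apart: the mean was 38.7 ± 1.01 FPKM in siEzh2 and 74.8 ± 0.256 FPKM in control samples (SD, n = 3 each), 1.93 times lower. The log2 fold change was −0.93 (SE 0.0344, 95% interval −1.02 to −0.85, limma adjusted p = 3.92e-05), rank 48 of 11869 from the most negative. Gpx3 (ENSMUSG00000018339, chromosome 11 from 54902453 to 54910377, plus strand), the selenium-containing glutathione peroxidase of plasma, had 145, 137 and 129 FPKM in siEzh2 samples, against 208, 206 and 208 FPKM in control samples. Every siEzh2 sample was lower than every control sample, although the siEzh2 samples were spread more widely (137 ± 7.996 and 207 ± 0.994 FPKM, SD, n = 3 each). Gpx3 was 1.51 times lower, with a log2 fold change of −0.59 (SE 0.0488, limma adjusted p = 0.000301). Fbln5, a matrix protein known to tether Sod3 in the vessel wall, was 1.97 times lower in the same samples (18.0 ± 0.635 and 35.5 ± 0.868 FPKM, SD, n = 3 each, limma adjusted p = 4.43e-05). Furin, a protease that trims the matrix-binding end of Sod3, did not pass (29.9 ± 1.63 and 30.2 ± 0.895 FPKM, limma adjusted p = 0.853).

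The cytosolic members were lower by smaller amounts. Gpx1 (ENSMUSG00000063856, chromosome 9 from 108338903 to 108340343, plus strand), the ubiquitous selenium-containing peroxidase, had 206, 205 and 205 FPKM in siEzh2 samples, against 238, 231 and 234 FPKM in control samples. It was 1.14 times lower (log2 fold change −0.19, SE 0.0313, limma adjusted p = 0.00404). Sod1 (ENSMUSG00000022982, chromosome 16 from 90220754 to 90226329, plus strand), the intracellular copper-zinc dismutase, had 20.01, 19.5 and 19.6 FPKM in siEzh2 samples, against 22.4, 24.4 and 21.5 FPKM in control samples. The highest siEzh2 and the lowest control sample stood close together, and the fall of 1.16 times (log2 fold change −0.20, SE 0.0512, limma adjusted p = 0.0208) lost its call without siEzh2 sample 2 (adjusted p = 0.0617) or siEzh2 sample 3 (adjusted p = 0.0571).

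Prdx6 (ENSMUSG00000026701, chromosome 1 from 161240112 to 161251219, minus strand), a peroxiredoxin with a single catalytic cysteine and phospholipase activity, had 69.4, 68.9 and 72.0 FPKM in siEzh2 samples, against 73.8, 73.4 and 77.1 FPKM in control samples. Its log2 fold change was −0.09 with a 95% interval of −0.18 to 0.00102 and a limma adjusted p of 0.0943. The adjusted p was 0.0369 with limma's trend and robust options on and 0.00142 with limma-voom on recovered reads. Prdx6 thus has values that are lower in siEzh2 samples, with a call that depends on the test used.

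Gpx4 (ENSMUSG00000075706, chromosome 10 from 80047166 to 80056439, plus strand), which reduces lipid peroxides within membranes and is the main guard against ferroptosis, had 94.5, 97.4 and 97.0 FPKM in siEzh2 samples, against 105, 117 and 114 FPKM in control samples. It was 1.16 times lower (log2 fold change −0.21, SE 0.0502, limma adjusted p = 0.0146). Of 1220 distinct stretches of 50 bases in its coding transcripts, 627 (51.4%) also occur in Gpx4-ps2. The pseudogene had 63.3, 68.4 and 74.8 FPKM in siEzh2 samples, against 78.7, 85.0 and 78.8 FPKM in control samples. It took 23.6% to 26.3% of the reads of both genes together in siEzh2 samples and 24.2% to 25.7% in control samples, and these ranges overlap. The sources used here do not say how the counting treated reads of the shared stretches, so the separate levels are uncertain. With the reads of the pseudogene added to Gpx4, the log2 fold change was −0.22 (limma adjusted p = 0.0137). Sod1 shares 23.1% of its stretches with the processed pseudogene Gm8566, which had 5.61 ± 0.810 FPKM in siEzh2 and 5.38 ± 0.925 FPKM in control samples (SD, n = 3 each). Prdx6 shares 0.28% with Prdx6b, Sod2 1.62% with 200 other genes together, and the other members 0%.

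The mitochondrial and peroxisomal enzymes were the 2 members that rose. Sod2 (ENSMUSG00000006818, chromosome 17 from 13006846 to 13040063, plus strand), the manganese dismutase of the mitochondrial matrix, had 5.19, 5.87 and 5.57 FPKM in siEzh2 samples, against 4.595, 4.41 and 4.82 FPKM in control samples. It was 1.20 times higher (log2 fold change 0.22, SE 0.0519, limma adjusted p = 0.0146), on 2840 reads in siEzh2 and 2565 in control samples. Of 16 transcripts of the mitochondrial genome, 8 were lower, 0 higher and 8 did not pass in the same samples. Cat (ENSMUSG00000027187, chromosome 2 from 103453849 to 103485160, minus strand), the catalase of peroxisomes, had 39.5, 38.8 and 38.2 FPKM in siEzh2 samples, against 34.2, 35.3 and 33.8 FPKM in control samples. It was 1.13 times higher (log2 fold change 0.17, SE 0.0350, limma adjusted p = 0.00899).

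Both peroxidases of the endoplasmic reticulum fell. Gpx7 (ENSMUSG00000028597, chromosome 4 from 108400390 to 108406961, minus strand), which passes the oxidizing power of hydrogen peroxide to protein disulfide isomerases, had 35.0, 33.2 and 31.6 FPKM in siEzh2 samples, against 45.2, 44.1 and 49.1 FPKM in control samples. It was 1.39 times lower (log2 fold change −0.46, SE 0.0583, limma adjusted p = 0.00143). Gpx8 (ENSMUSG00000021760, chromosome 13 from 113042753 to 113046410, minus strand), a membrane-bound relative with the same role, had 147, 144 and 138 FPKM in siEzh2 samples, against 162, 157 and 164 FPKM in control samples. It was 1.12 times lower (log2 fold change −0.17, SE 0.0388, limma adjusted p = 0.0144), a call lost without control sample 3 (adjusted p = 0.0504). The ratio of Gpx7 to Gpx8 was 0.238, 0.230 and 0.228 in siEzh2 samples, against 0.279, 0.280 and 0.300 in control samples, with no overlap. An exact permutation test of this ratio, counting both directions, gave p = 0.1. That is the lowest value possible with 3 samples per group, so the test cannot decide whether the falls of Gpx7 and Gpx8 differ.

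**Figure D2:**
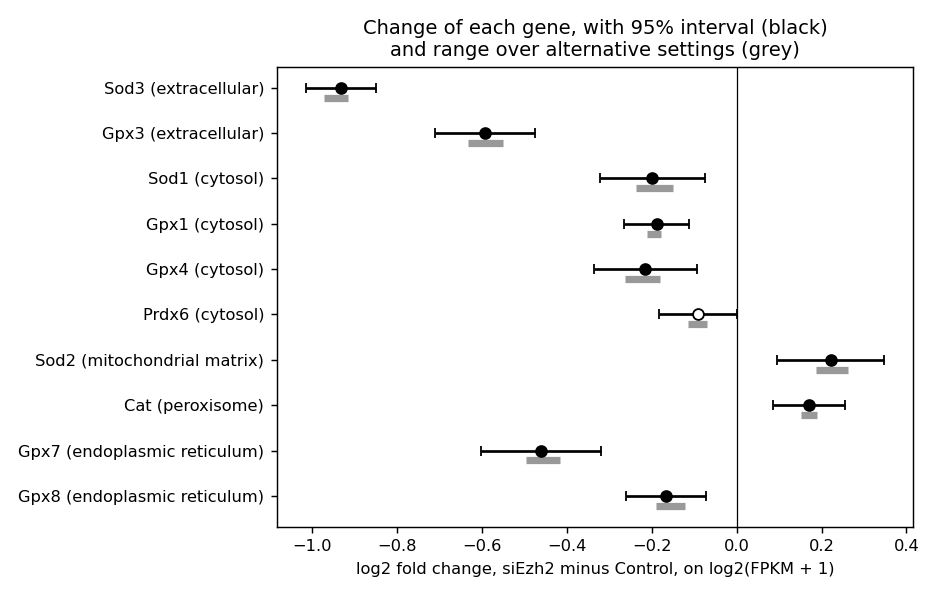
Log2 fold change of each gene, siEzh2 minus control on log2(FPKM + 1) (horizontal axis), by compartment, with its 95% interval in black and the range over the alternative settings in grey; an open circle did not pass the test. Sod3 (−0.93), Gpx3 (−0.59) and Gpx7 (−0.46) lie farthest left, Sod2 (0.22) and Cat (0.17) lie to the right of 0, and no grey range crosses 0.

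Summed by compartment, the secreted members had 185, 176 and 167 FPKM in siEzh2 samples, against 283, 281 and 283 FPKM in control samples, 0.624 times the control mean. The endoplasmic reticulum members stood at 0.853 times and the cytosolic members at 0.882 times their control means. Peroxisome and mitochondrial matrix, with 1 gene each, stood at 1.13 and 1.20 times. Shares, and sums over several genes, depend on the gene length used, which here is total exon length, as deposited. The secreted members made up 22.3% ± 0.749 of the summed FPKM of the 10 genes in siEzh2 and 29.0% ± 0.208 in control samples (SD, n = 3 each). The cytosolic share was 49.7% ± 1.11 and 45.7% ± 0.369 (SD, n = 3 each). None of these sums or shares was tested, since the members had been chosen with results known.

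Among the dismutases the secreted form was lower relative to both intracellular forms in siEzh2 samples. The ratio of Sod3 to Sod1 was 1.99, 1.98 and 1.93 in siEzh2 samples, against 3.33, 3.08 and 3.48 in control samples. The ratio of Sod3 to Sod2 was 7.67, 6.58 and 6.78 in siEzh2 samples, against 16.2, 17.0 and 15.5 in control samples. The ratio of Sod2 to Sod1 was 0.282 ± 0.0212 and 0.203 ± 0.0216 (SD, n = 3 each). For peroxidases, Gpx3 to Gpx1 was 0.669 ± 0.0370 and 0.885 ± 0.00815, and Cat to Gpx1 was 0.189 ± 0.00263 and 0.147 ± 0.00500 (SD, n = 3 each). The groups did not overlap in any of these 5 ratios. For Sod3 to Sod2, Sod2 to Sod1 and Cat to Gpx1 this was fixed in advance, since their single genes moved in opposite directions without overlap. An exact permutation test, counting both directions, gave p = 0.1 for each ratio. That is the lowest value possible with 3 samples per group, so the test cannot decide. The ratios are given as a description, since the members were chosen with results known.

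**Figure D3:**
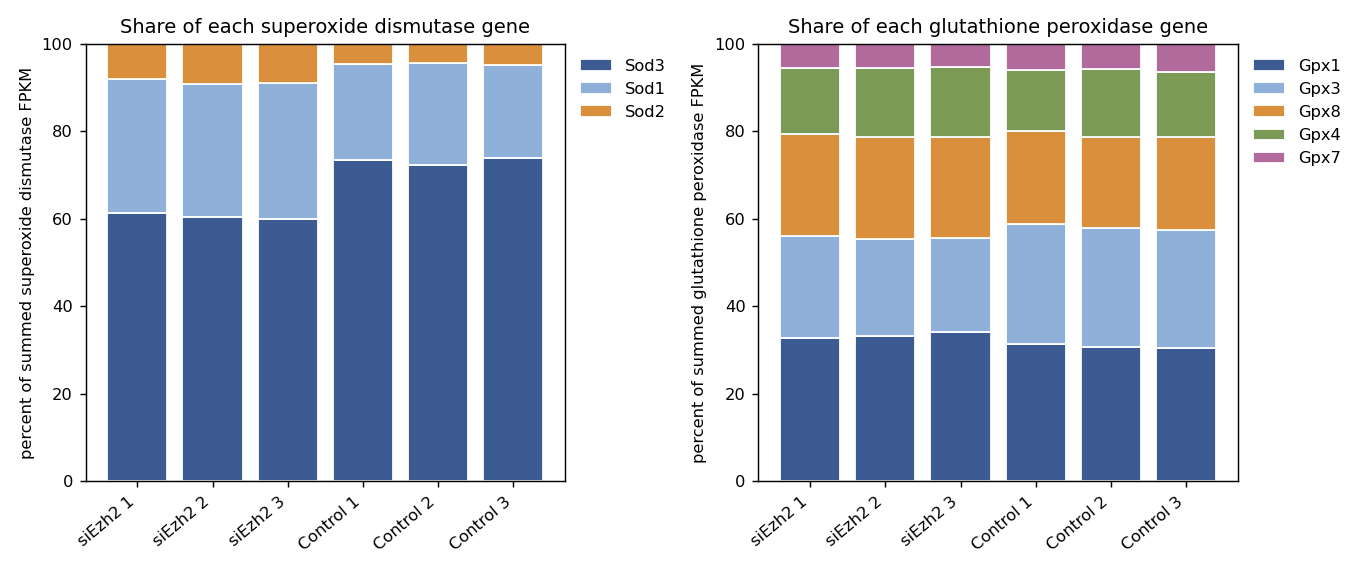
Share of each gene in the summed FPKM of the 3 superoxide dismutases (left) and the 5 glutathione peroxidases (right), in percent (vertical axes), for each siEzh2 and control sample. Sod3 makes up 60.1% to 61.2% of the dismutase sum in siEzh2 samples and 72.3% to 74.0% in control samples, on the deposited scale by total exon length, and Gpx3 makes up 21.5% to 23.1% of the glutathione peroxidase sum in siEzh2 samples and 27.0% to 27.5% in control samples.

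The order of levels depends on the gene length used. The deposited FPKM divide by all annotated exon bases: multiplied by the exon length of GENCODE M21, the values of all 10 members gave whole reads within 0.000144 of a read. For Sod1 that length is 3970 bases over all annotated transcripts together, whereas the longest coding transcript has 641 bases. On the deposited scale the order in siEzh2 samples was Gpx1, Gpx8, Gpx3, Gpx4, Prdx6, Cat, Sod3, Gpx7, Sod1 and Sod2. In control samples it was Gpx1, Gpx3, Gpx8, Gpx4, Sod3, Prdx6, Gpx7, Cat, Sod1 and Sod2. Neighbours with overlapping samples were Gpx8 with Gpx3 and Cat with Sod3 in siEzh2 samples, and Sod3 with Prdx6 in control samples. On this scale the ratio of Sod3 to Cat was 0.997 ± 0.00977 in siEzh2 and 2.18 ± 0.0460 in control samples, and that of Sod3 to Prdx6 0.553 ± 0.0252 and 1.001 ± 0.0268 (SD, n = 3 each).

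Rescaled to the longest coding transcript, a scale chosen after the data had been seen, Sod1 stood at 122 ± 1.78 in siEzh2 and 141 ± 9.05 in control samples, above Sod3 at 38.7 ± 1.01 and 74.8 ± 0.256 (SD, n = 3 each). Prdx6 then stood at 141 in siEzh2 and 150 in control samples, above Sod3 in both groups, while Cat and Sod3 kept their values. Sod3 then made up 22.8% ± 0.313 of the dismutase sum in siEzh2 and 33.5% ± 1.249 in control samples, and Sod1 71.7% ± 0.348 and 63.0% ± 1.54 (SD, n = 3 each). The lower share of Sod3 on the second scale was fixed in advance, since its ratios to Sod1 and to Sod2 were both lower in every siEzh2 sample. Which dismutase is the most abundant differs between the scales. Linear fold changes of single genes are the same on both.

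**Figure D4:**
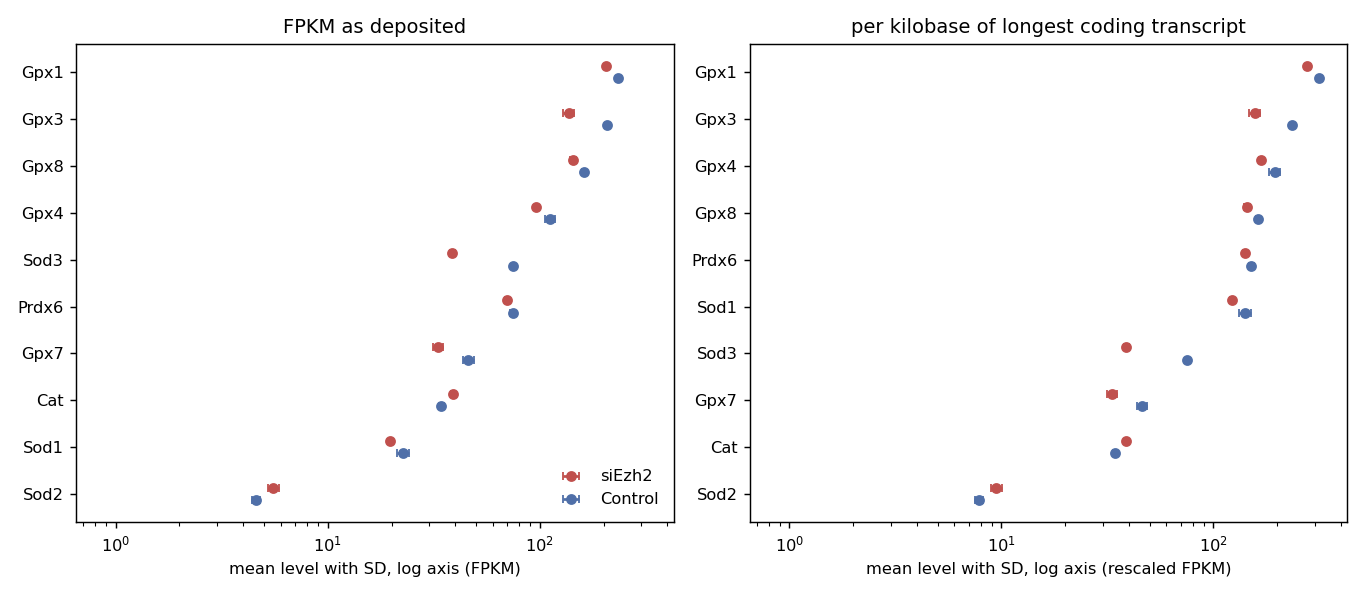
Mean level of each gene with SD (log axis) in siEzh2 (upper point) and control samples (lower point), as deposited FPKM (left) and rescaled to the longest coding transcript (right), sorted by the control mean. Gpx1 is highest and Sod2 lowest in both panels, and Sod1 moves up from 19.7 and 22.8 FPKM to 122 and 141 when rescaled.

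Of 5 other peroxiredoxins 2 were higher and 1 lower (median log2 fold change 0.14). Prdx2 and Prdx3 had higher means in siEzh2 samples but did not pass (limma adjusted p = 0.058 and 0.0741). Prdx1, a cytosolic peroxiredoxin that relies on thioredoxin, had 141, 142 and 138 FPKM in siEzh2 samples, against 96.3, 101 and 101 FPKM in control samples (limma adjusted p = 0.000191). Prdx5, found in mitochondria, peroxisomes and cytosol, had 132 ± 2.22 and 157 ± 1.32 FPKM (SD, n = 3 each, limma adjusted p = 0.00156), with a gene on the opposite strand over 19.1% of its exon bases. Prdx4 of the endoplasmic reticulum passed with a log2 fold change of 0.18 (limma adjusted p = 0.0254), a call lost without siEzh2 sample 1 (adjusted p = 0.0713), 2 (0.0549) or 3 (0.0577) or control sample 2 (0.0501). Gpx2, Gpx5 and Gpx6 were under 0.1 FPKM in both groups and were not tested.

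Of the genes that supply reducing power to these enzymes, those for glutathione and NADPH mostly rose. The thioredoxin and glutaredoxin list, which also holds Txnip and sestrins, went both ways. In the list of glutathione and NADPH supply 8 of 9 tested genes were higher and 0 lower (median log2 fold change 0.34). The largest was Slc7a11, the cystine importer, at 2.74, 2.46 and 2.81 FPKM in siEzh2 samples, against 0.322, 0.375 and 0.329 FPKM in control samples. Gclc and Gclm, the subunits of the rate-limiting enzyme of glutathione synthesis, were 1.86 and 1.81 times higher. In the thioredoxin and glutaredoxin list 5 were higher and 5 lower of 14 (median 0.05). The lower ones, named after their values were seen, were Txnip, Sesn2, Sesn3, Glrx and Glrx2. Txn2, Txnrd2 and Txnrd3 did not pass. Srxn1, which repairs over-oxidized peroxiredoxins, had 44.3 ± 1.52 and 19.8 ± 0.788 FPKM, Txnrd1 of thioredoxin reduction 63.7 ± 0.768 and 37.2 ± 0.414 FPKM, and Txn1 (thioredoxin) 198 ± 3.62 and 149 ± 4.79 FPKM in siEzh2 and control samples (SD, n = 3 each). Gpx1, Gpx3, Gpx4, Gpx7 and Gpx8, described above, were lower.

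Metal and selenium supply were also compared. Copper delivery genes, which load Sod1 and Sod3, had 0 higher and 3 lower of 4 tested (median log2 fold change −0.22). Atp7a, the pump that supplies copper to secreted enzymes, fell 1.36 times and Atox1, its chaperone, 1.148 times. Ccs, the copper chaperone of Sod1, fell 1.20 times (limma adjusted p = 0.0177), a call lost without siEzh2 sample 2 (adjusted p = 0.0574), control sample 2 (0.0539) or control sample 3 (0.0548). Of 8 genes of selenocysteine synthesis 1 was higher and 2 lower (median 0.04). The one that rose, Sephs2, makes the selenium donor and was 1.41 times higher (a gene on the opposite strand covers 36.4% of its exon bases). Sepsecs, which completes selenocysteine on its transfer RNA, passed 1.22 times lower (limma adjusted p = 0.0373) and Sephs1, a relative of Sephs2, 1.12 times lower (limma adjusted p = 0.0498); without single samples their adjusted p reached 0.108 and 0.127. Other selenoproteins had 3 higher and 6 lower of 13 (median −0.08), among them Selenon of calcium handling (2.39 times higher), Dio2, a deiodinase (1.64 times higher), and Selenom of the endoplasmic reticulum (1.41 times lower). Selenop, the selenium carrier of plasma, chosen after its values were seen, had 1012, 1012 and 1002 FPKM in siEzh2 samples, against 1327, 1322 and 1329 FPKM in control samples (limma adjusted p = 0.000232, a gene on the opposite strand covering 15.45% of its exon bases).

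In the list of superoxide and hydrogen peroxide sources, 1 was higher and 4 lower of 6 tested (median log2 fold change −0.27). The list held 14 genes with a value and left out Ero1l (below), so the count does not describe all such sources. Of its untested genes only Duox1, chosen after its values were seen, had groups without overlap. Its means were 0.711 FPKM in siEzh2 and 0.421 FPKM in control samples. Maob, a monoamine oxidase of mitochondria that releases hydrogen peroxide, fell 1.56 times, and Cyba, the p22phox subunit of NADPH oxidases, had 128 ± 3.50 and 162 ± 3.08 FPKM in siEzh2 and control samples (SD, n = 3 each). Xdh, xanthine dehydrogenase, rose 1.17 times. Nox4, a catalytic subunit of NADPH oxidase, chosen after its values were seen, had 4.13, 4.32 and 3.99 FPKM in siEzh2 samples, against 4.98, 5.24 and 5.10 FPKM in control samples (log2 fold change −0.25, limma adjusted p = 0.00337). Nox1 and Cybb, other catalytic subunits, averaged under 0.1 FPKM in both groups. In the list of oxidative folding in the endoplasmic reticulum, where Gpx7 and Gpx8 work, 3 were higher and 1 lower of 8 (median −0.02). Ero1l, the oxidase that forms hydrogen peroxide there, had 24.97, 25.3 and 26.1 FPKM in siEzh2 samples, against 14.9, 14.7 and 14.9 FPKM in control samples (limma adjusted p = 5.15e-05). Qsox1, a secreted sulfhydryl oxidase, and Vkorc1l1, a vitamin K epoxide reductase, were 1.37 and 1.44 times higher.

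Around catalase, peroxisome import genes had 2 higher and 3 lower of 12 tested (median log2 fold change −0.13). Pex2, a ubiquitin ligase of the import machinery, and Pex16 of membrane assembly (opposite-strand gene over 7.16% of its exon bases) fell 1.29 and 1.46 times, and Pex6, which recycles the import receptor, rose 1.52 times. Among peroxisomal oxidases and related enzymes, Acox3, an oxidase of branched chains, was 1.27 times lower (opposite-strand gene over 6.08% of its exon bases). Phyh, which starts phytanic acid breakdown, passed 1.16 times higher (limma adjusted p = 0.0173), but not with limma-voom (adjusted p = 0.135) or without siEzh2 sample 2 (0.0509), control sample 2 (0.0582) or control sample 3 (0.0532). Among transcriptional regulators of antioxidant genes 2 were higher and 2 lower of 9 (median 0.11). Nfe2l2 (NRF2) rose 1.35 times, while Keap1, its inhibitor (opposite-strand gene over 10.9% of its exon bases), and Epas1 (HIF-2α) fell 1.26 and 1.79 times.

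**Figure D5:**
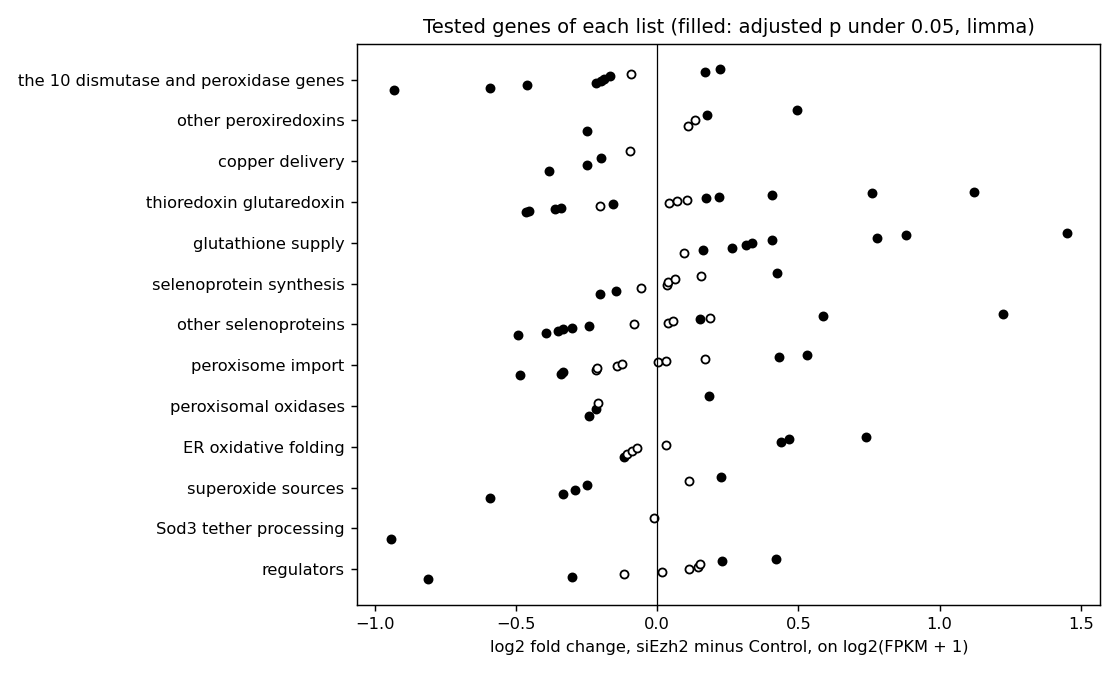
Log2 fold change, siEzh2 minus control on log2(FPKM + 1) (horizontal axis), of each tested gene by list; filled points had an adjusted p under 0.05 by limma. The 10 dismutase and peroxidase genes lie mostly left of 0, from −0.93 to 0.22, while 8 of 9 genes of glutathione supply are filled and right of 0.

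For 8 of the members, all but Sod3 and Prdx6, RefSeq promoters of 300 bases (GRCm38.p6) were at hand. The motif TGACNNNGC, the core of the element that NRF2 binds, was searched on both strands. It occurred in the promoter of Sod1 and in none of the other 7 genes, and in 12.4% of all promoters. The Sod1 match, on the minus strand of the gene, is shown as the only one found, in capitals within 29 bases on chromosome 16 (promoter chr16:90220512-90220811, plus strand).
Sod1: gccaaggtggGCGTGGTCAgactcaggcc
The match is a description of these letters and not a binding site.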

How the data were processed

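FPKM values per gene, 1 table per sample, were deposited by the authors and are named as FPKM per the file headers. Trimmomatic, HISAT2, HTSeq, Cufflinks and the build mm10 are named without versions or order, per the submitters' processing notes; libraries were TruSeq Stranded mRNA, per the labels' protocols. The sources used here do not say whether counting used the strand, so reads of overlapping antisense genes cannot be told apart. Genes with a group mean of at least 1 FPKM were tested with limma 3.58.1 (R 4.3.3) on log2(FPKM + 1), a scale that understates changes of low genes, with Benjamini-Hochberg adjustment over all tested genes. FPKM times GENCODE M21 exon length gave whole reads (within 0.02) for 98.4% to 98.5% of values under 1000 reads. The test was tried on simulated data. Members and gene lists were chosen with earlier results of these data known. Named genes were Ezh2, all members and up to 3 called genes with the smallest p per list; others are said to be chosen after their values were seen, apart from markers, close copies and genes given as not passing. Alternatives were a pseudocount of 0.1, no filter, quantile normalization, trend and robust options, the replicate number as a block, limma-voom on recovered reads and leaving out each sample. Python 3.11.15, pandas 2.3.3, scipy 1.17.1 and Biopython 1.88 did the rest. A named gene is not reported here.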

Additional observations from a re-analysis of the deposited data

How the results depend on the processing

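The count of members called was 2 higher in every alternative run. The count called lower was 7 with a pseudocount of 0.1, no filter, quantile normalization or the pseudogene reads added, and 8, with Prdx6, under trend and robust options or limma-voom. It was 6 to 7 with 1 sample left out. No member changed direction. Compartment sums, siEzh2 over control, ranged with 1 sample left out from 0.608 to 0.640 (extracellular), 0.877 to 0.885 (cytosol), 0.839 to 0.869 (endoplasmic reticulum), 1.12 to 1.14 (peroxisome) and 1.17 to 1.24 (mitochondrial matrix). Over the 46 named genes and 553 alternative values, 512 kept call and direction, 39 lost the call, 2 gained it and 0 reversed.

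Samples with the same replicate number deviated from their group means with correlations of 0.0243, 0.0695 and 0.0405 across genes, so the numbers were not taken to pair samples, although each sample correlated best with its own number. With the replicate number as a block, 7 members were lower and 2 higher, among 2385 lower and 2564 higher genes. Of the named genes, Prdx4, Phyh, Sepsecs, Sephs1 and Gpx4-ps2 lost their calls under the block (adjusted p = 0.061, 0.0549, 0.0819, 0.0836 and 0.0503, limma).

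Levels of Gpx4 and its pseudogene are limited by shared sequence, and levels between genes by the exon length used.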
